A study of Mus musculus with 2 samples.

Results

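The Myc, Max and Mxd network is a set of transcription factors that pair through a shared basic helix-loop-helix leucine zipper. Its 10 genes were Myc, Mycn, Mycl, Max, Mnt, Mxd1, Mxd3, Mxd4, Mlx and Mga, out of 23784 genes named on the arrays. They were found as the non-control probes whose RefSeq accession maps to these genes, which gave 19 probes of the 34560 that carry the name of 1 gene. The rule rests on gene names.

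The arrays measured RNA of a murine glioblastoma stem cell line, kept as neurospheres without serum and with the growth factors EGF and bFGF. The knockdown cells stably carried a lentiviral shRNA against Gli2, a transcription factor of the Hedgehog pathway, and their controls stably carried a lentiviral non-target shRNA. Both came from the same line, which per the labels was derived from Sleeping Beauty (SB) transposon tumours, so all values describe 1 line. Each group was 1 array of Cy3-labelled RNA, so no value has a replicate and no test between the groups was possible.

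Myc proteins bind DNA as dimers with Max at the E-box, whose letters are CACGTG, and activate genes of ribosome production, metabolism and cell growth. Mxd and Mnt proteins also pair with Max, occupy the same sites and repress through the Sin3 corepressor, so the balance of partners at Max sets the output. Mlx is a Max-like hub for the glucose-sensing Mondo proteins, and Mga, also a partner of Max, belongs to a Polycomb complex. Mycn is known as a Hedgehog target in neural precursors, which is the question that a Gli2 knockdown puts to this network.

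Levels are log2 processed signals minus the 75th percentile of the same array, and a difference is the Gli2 shRNA level minus the control level. The ± is the error that the scanner software models for the spots of both arrays. It says nothing of the spread between cultures. Gli2 itself, read by 1 probe on chromosome 1, had a processed signal of 57.9 on the Gli2 shRNA array and 98.1 on the control array. Its log2 difference was -1.04 ± 0.22, which is 48.7% of the control level. It was -0.64 with normexp background correction, -0.90 with median scaling and -0.97 with cyclic loess, all within 2-fold. With quantile normalization it was -1.02. Gli2 dropped out at a signal of at least 100, and the remaining alternatives repeat the value of its only probe, or nearly so in the authors' table.

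Of the 10 network genes, 7 had nearly equal levels in both arrays and 3 differed by more than 1.5-fold. The repressors Mxd1 and Mxd4 were higher in the Gli2 shRNA cells, and the Myc family gene Mycl was lower. None of the 10 passed 2-fold, against 3.63% of the 14563 genes measured on both arrays (1.84% higher and 1.79% lower). At 1.5-fold, 2 members were higher, against 6% of all genes, and 1 was lower, against 6.54%. With normexp background correction all 3 of these were within 1.5-fold (Mxd1 0.54, Mxd4 0.52 and Mycl -0.57). The median difference of the 10 genes was 0.05, beside 0.003 for all genes.

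The Gli2 shRNA array was brighter as a whole, by 1.21-fold at the 75th percentile, and 9 of the 10 genes had a higher unscaled signal on it, Mycl being the exception. After scaling, 6 genes lay above 0 and 4 below. Scaling by the median instead would raise the median difference of all genes by 0.14, and every difference given here is relative to the 75th percentile. For 6 of the 10 genes the difference was smaller than its own software error.

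**Figure D1:**
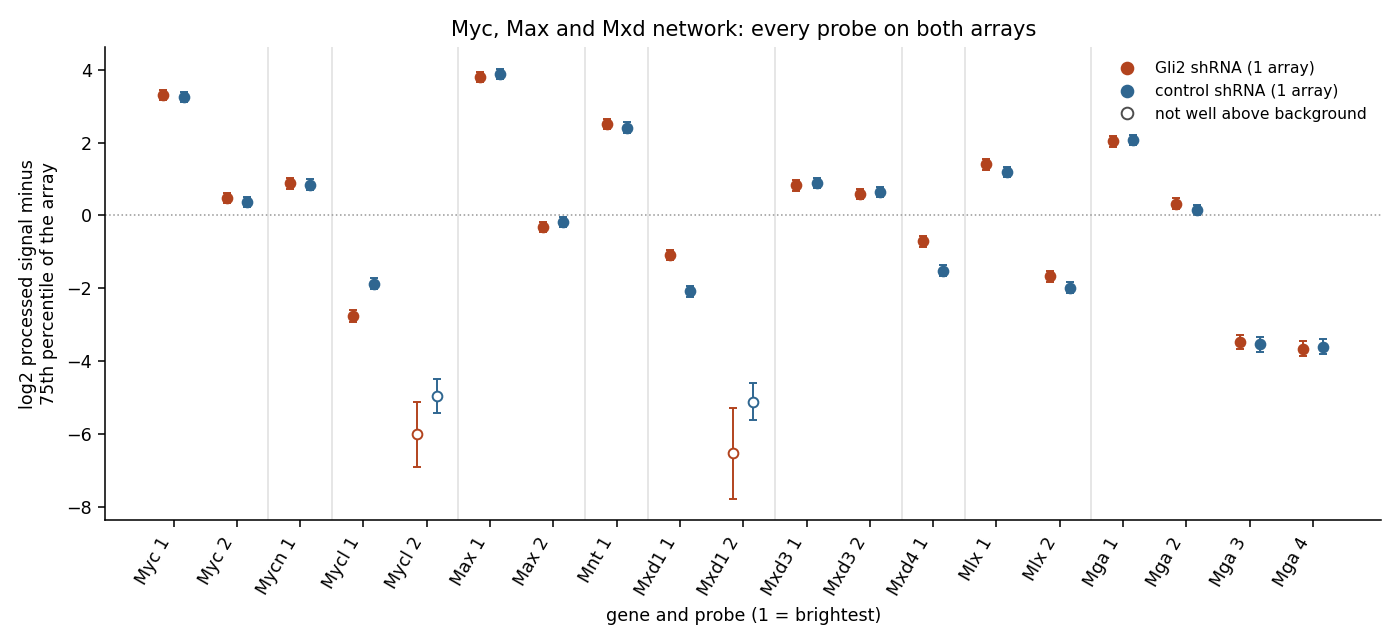
Level of every probe of the 10 network genes, as log2 processed signal minus the 75th percentile of the array, with the software's error as bars. Gli2 shRNA points stand left of control points, and open circles mark probes not well above background. The brightest probes of Mxd1 and Mxd4 sit higher and that of Mycl lower in the Gli2 shRNA cells, while the pairs of the other 7 genes nearly coincide.

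The Myc family comprises the proto-oncogene Myc, Mycn of neural precursors and Mycl, first known from small cell lung cancer in humans. Myc, on chromosome 15, had signals of 3947 on the Gli2 shRNA array and 3126 on the control array. Its log2 difference was 0.06 ± 0.20, and its other probe gave 0.11 ± 0.20 (556 and 426). Both Myc probes differed by less than the software error, and both lay above 0.

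Mycn, on chromosome 12, was read by 1 probe with signals of 732 in the Gli2 shRNA cells and 590 in the control cells. The log2 difference was 0.03 ± 0.20, or 102% of the control level. The difference of this Hedgehog-responsive gene was within the spot error. It lay above 0 with normexp (0.07), median scaling (0.17), quantile normalization (0.03) and cyclic loess (0.01). The remaining alternatives repeat the value of its only probe, or nearly so in the authors' table.

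Mycl, on chromosome 4, had signals of 58.3 on the Gli2 shRNA array and 89.2 on the control array. The log2 difference was -0.89 ± 0.23, so its level was 54.0% of the control. Of all genes measured on both arrays, 2.53% were at least as low. Its other probe was not well above background on either array (6.14 and 10.5) and gives no fold. The Mycl value rests on 1 dim probe, and its difference was -0.57 with normexp background correction, which pulls dim probes toward 0.

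Max, the obligate partner of Myc proteins, lies on chromosome 12. It had signals of 5554 in the Gli2 shRNA cells and 4847 in the control cells, a log2 difference of -0.08 ± 0.20. The other probe, designed on another Max transcript, differed by -0.14 ± 0.21 (319 and 291). With median scaling the brighter probe turned to 0.05, so Max has no settled direction.

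Among the repressors that compete for Max, Mxd1 and Mxd4 stood higher in the Gli2 shRNA cells, whereas Mxd3 and Mnt had similar levels. Mxd1, formerly Mad1 and known to accumulate as cells leave the cycle and differentiate, lies on chromosome 6. Its signal was 187 on the Gli2 shRNA array and 77.4 on the control array. The log2 difference was 0.999 ± 0.215, a hair short of 2-fold, and 1.85% of all genes were at least as high. The second Mxd1 probe was not well above background on either array (4.29 and 9.48).

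Because Mxd1 sits on the 2-fold line, its call depends on the processing. It was 1.13 with median scaling and 1.02 with cyclic loess, both past 2-fold, and 0.54 with normexp. With quantile normalization it was 0.99, so its sign was the same in each of these. The remaining alternatives that could measure it repeat the value of its only measured probe, or nearly so in the authors' table. It had a signal under 100 in the control cells and drops out under the stricter filter.

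Mxd4, formerly Mad4 and also linked to differentiating cells, lies on chromosome 5 and was read by 1 probe. Its signal was 244 in the Gli2 shRNA cells and 115 in the control cells. The log2 difference was 0.81 ± 0.21, or 1.75-fold, and 3.05% of all genes were at least as high. It ran from 0.52 with normexp to 0.94 with median scaling, with quantile normalization (0.78) and cyclic loess (0.81) between. The remaining alternatives repeat the value of its only probe, or nearly so in the authors' table.

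Mxd3, the Mxd member that is known to be expressed in cycling cells, lies on chromosome 13. Its brighter probe had signals of 705 on the Gli2 shRNA array and 608 on the control array, and the other had 597 and 513. The log2 differences were -0.06 ± 0.20 on each probe. With median scaling the brighter probe turned to 0.07. The 2 probes of Mxd3 differed from each other by 0.005, the closest of the 5 network genes with several measured probes.

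Mnt, a broadly expressed Max partner and repressor on chromosome 11, had signals of 2272 in the Gli2 shRNA cells and 1748 in the control cells. The log2 difference was 0.10 ± 0.20. The differences of the 4 repressors of the Mxd and Mnt kind ran from -0.06 for Mxd3 to 0.999 for Mxd1.

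Mlx, the partner of the Mondo proteins, also lies on chromosome 11. It had signals of 1052 on the Gli2 shRNA array and 750 on the control array, with a log2 difference of 0.21 ± 0.20. The dimmer probe gave 0.31 ± 0.21 (125 and 82.8). Both Mlx probes lay just beyond their error, although the dimmer one was at -0.003 with normexp.

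Mga, a large T-box and helix-loop-helix protein on chromosome 2 that is lost in some human tumours, was read by 4 probes. The brightest had signals of 1629 in the Gli2 shRNA cells and 1377 in the control cells, a log2 difference of -0.03 ± 0.20. The other probes gave 0.17 ± 0.20 (498 and 366), 0.06 ± 0.29 (35.8 and 28.3) and -0.06 ± 0.29 (31.6 and 27.1). The 4 probes fell on both sides of 0, and the brightest turned to 0.10 with median scaling and the gene to 0.04 with the mean of its probes, so Mga has no settled direction.

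For the 5 network genes with several measured probes, the gap between the highest and the lowest probe difference was at most 0.22 (Mga). Over the 4148 genes with exactly 2 measured probes the median gap was 0.13, and 95% of gaps were below 0.79. Neither Mxd1, Mxd4 nor Mycl has a second measured probe, so the 3 genes that stood apart are those without this check, together with Mycn and Mnt.

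**Figure D2:**
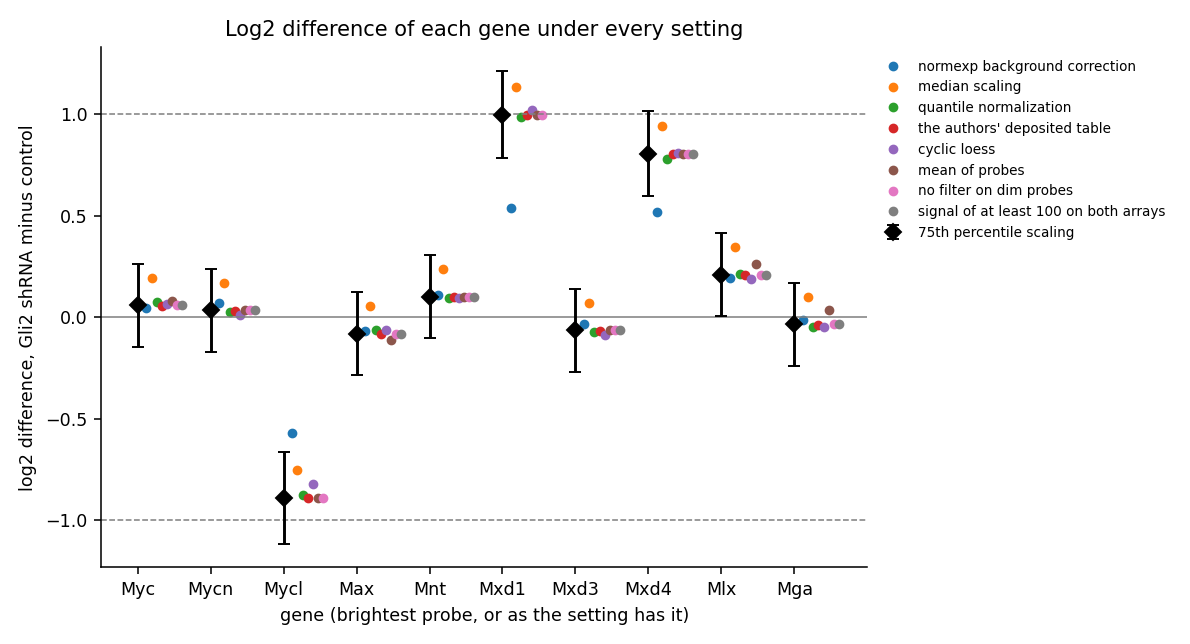
Log2 difference of each network gene, Gli2 shRNA minus control, with the software's error (black diamonds and bars) and under 8 alternative settings (coloured points). Dashed lines mark 2-fold. Mxd1 touches the upper line and passes it with median scaling and cyclic loess, and normexp moves Mxd1, Mxd4 and Mycl toward 0.

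A comparison within each array does not depend on how whole arrays are scaled, so each gene was also set against Max. The difference of Mxd1 exceeded that of Max by 1.08 ± 0.30 on the log2 scale, and that of Mxd4 by 0.89 ± 0.29. Mycl lay below Max by this measure, at -0.81 ± 0.30. For Myc the value was 0.14 ± 0.29 and for Mycn 0.11 ± 0.29. Both Mxd genes differed from their partner by more than the software error. The comparison still depends on background correction. With normexp the values against Max shrank to 0.61 for Mxd1, 0.59 for Mxd4 and -0.50 for Mycl. Such a comparison shows unequal differences and not that Max stayed constant.

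The 3 genes that differed were read by probes of low signal. All genes measured on both arrays were split into 4 groups of equal size by mean signal. Mxd1 and Mycl lay in the dimmest group and Mxd4 in the next. In the dimmest group the central 95% of differences ran from -1.14 to 1.22, and in the next from -0.89 to 0.95. In the brightest group, which holds Myc and Max, it ran from -0.56 to 0.46. All 10 network genes lay inside the central 95% of their own brightness group. The part of low signal in the differences of Mxd1, Mxd4 and Mycl was not tested.

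**Figure D3:**
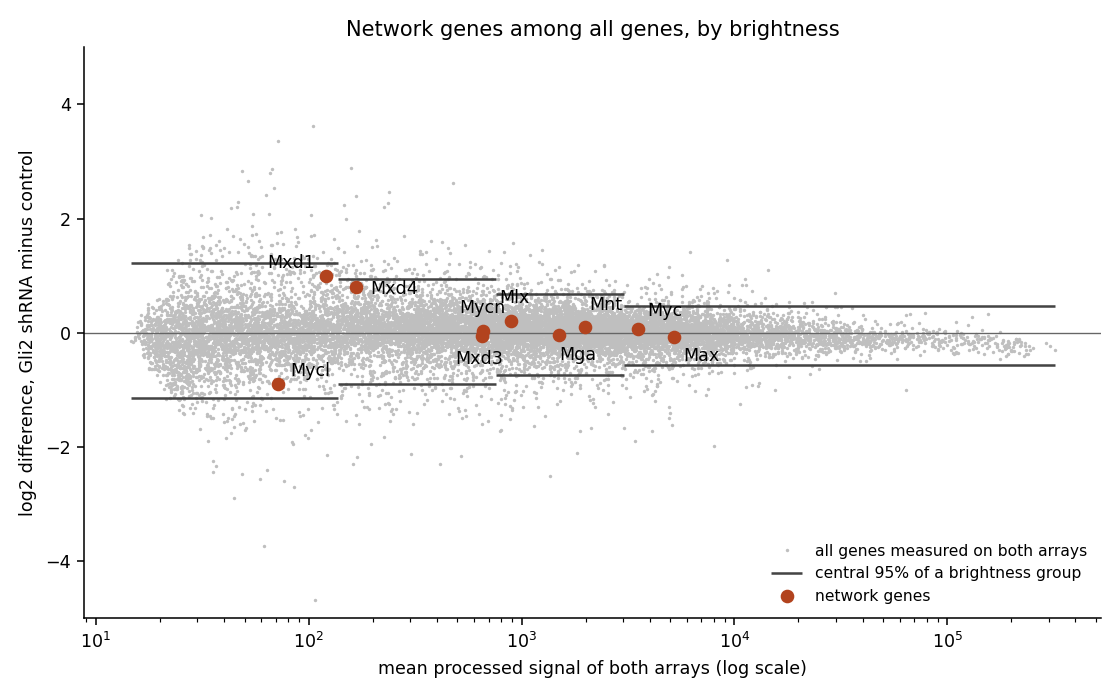
Log2 difference, Gli2 shRNA minus control, against the mean processed signal of both arrays (log scale) for the 14563 genes measured on both. Dark lines bound the central 95% of each of 4 brightness groups of genes, and all 10 network genes (orange points) lie between them.

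The partners that complete the network had similar levels in both arrays. Mxi1, the remaining Mxd family member, had signals of 2090 in the Gli2 shRNA cells and 1694 in the control cells and differed by 0.03 ± 0.20. Mlxip, also called MondoA, differed by -0.06 ± 0.21, a sign that turned with median scaling (0.07). Mlxipl, also called ChREBP, a glucose-responsive factor, differed by 0.22 ± 0.21, and Zbtb17, also called Miz1, through which Myc represses genes, by 0.14 ± 0.20. None of the 4 passed 1.5-fold, against 12.5% of all genes.

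Promoter sequences are shown for the 3 genes that differed and for Max, because the network is known to act on E-boxes, some of them in its own genes. They are RefSeq windows of build GRCm38.p6, from 250 bases before to 50 bases after the gene start, 5′ to 3′ on the strand of the gene. Capitals mark an E-box (CACGTG) or the letters GACCACCC of the GLI consensus, searched on both strands. The Mxd1 window is chr6:86669110-86669409 (minus strand), Mxd4 chr5:34187661-34187960 (minus strand), Mycl chr4:122995681-122995980 (plus strand) and Max chr12:76962199-76962498 (minus strand).
Mxd1: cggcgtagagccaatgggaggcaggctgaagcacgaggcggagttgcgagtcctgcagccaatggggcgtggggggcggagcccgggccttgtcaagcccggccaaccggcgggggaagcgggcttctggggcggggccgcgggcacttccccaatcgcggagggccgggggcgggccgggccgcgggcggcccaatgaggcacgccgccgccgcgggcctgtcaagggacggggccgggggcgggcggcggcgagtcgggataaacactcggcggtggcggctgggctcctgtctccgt
Mxd4: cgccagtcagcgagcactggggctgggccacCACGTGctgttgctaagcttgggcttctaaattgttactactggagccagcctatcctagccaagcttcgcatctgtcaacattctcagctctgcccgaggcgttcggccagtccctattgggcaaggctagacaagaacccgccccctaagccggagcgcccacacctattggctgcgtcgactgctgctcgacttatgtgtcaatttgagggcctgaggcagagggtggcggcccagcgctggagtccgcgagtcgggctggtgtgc
Mycl: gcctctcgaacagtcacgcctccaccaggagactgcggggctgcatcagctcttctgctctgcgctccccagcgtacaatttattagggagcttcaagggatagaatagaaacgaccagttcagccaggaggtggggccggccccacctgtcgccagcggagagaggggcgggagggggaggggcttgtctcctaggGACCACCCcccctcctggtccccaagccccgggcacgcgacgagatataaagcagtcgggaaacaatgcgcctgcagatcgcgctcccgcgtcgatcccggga
Max: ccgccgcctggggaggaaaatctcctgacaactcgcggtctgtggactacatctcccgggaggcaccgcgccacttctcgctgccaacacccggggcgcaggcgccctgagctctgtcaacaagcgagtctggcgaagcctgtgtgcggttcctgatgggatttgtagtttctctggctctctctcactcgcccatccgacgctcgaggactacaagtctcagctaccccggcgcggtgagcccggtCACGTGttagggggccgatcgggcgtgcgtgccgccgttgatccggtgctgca

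The Mxd4 window holds an E-box whose first letter lies 219 bases before the start, and in Max an E-box spans the start itself. The Mxd1 window holds neither motif. Windows were found for 9 of the 10 genes, all but Myc, and 4 of the 9 hold an E-box: Max, Mnt, Mxd4 and Mlx. The E-box occurred in 7.15% of all 32851 windows, and in 10.2% of the windows with at least 55% G and C, the lowest content among the 9. The E-box holds a CG pair, so its share moves with base composition.

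No window of a network gene holds the full GLI consensus GACCACCCA, which occurred in 0.253% of all windows. Its first 8 letters, searched after the Mycl window had been seen, occurred in the Mycl window 53 bases before the start and in 0.807% of all windows. A match of letters is a description and not a site. The GLI letters and the E-box were each looked for in these windows alone.

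Genes that Myc is known to activate were mostly slightly lower in the Gli2 shRNA cells, though with median scaling 31 lay above 0 and 31 below. This list and the lists below were chosen with earlier results of these data known. Their counts describe the listed genes and are no independent test of Myc activity. All 62 listed nucleolar and growth genes were measured, of which 52 lay below 0 and the median was -0.13, beside 49.7% below 0 and a median of 0.003 over all genes. Of the 62, 1 was lower past 2-fold, against 1.79% of all genes, and 0 were higher, against 1.84%. That 1 was Odc1, the ornithine decarboxylase that starts polyamine synthesis and a classic target of Myc. Its signal was 7618 on the Gli2 shRNA array and 14861 on the control array, a log2 difference of -1.24 ± 0.20, and its other probe gave -1.26.

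Next lowest were Shmt2 (-0.47 ± 0.20) and Mthfd2 (-0.46 ± 0.20), enzymes of mitochondrial one-carbon metabolism. At the other end stood Tfrc (0.19 ± 0.20), the transferrin receptor, the nucleolar gene Nop16 (0.13 ± 0.20) and Aimp2 (0.06 ± 0.20), a scaffold of tRNA synthetases whose other probe gave -0.05. The list's small shift is relative to the 75th percentile. With median scaling its median was 0.002 and 31 genes lay below 0, beside a median of 0.14 and 31.2% below 0 over all genes. Promoter windows were found for 54 of these genes, and 15 of them (27.8%) hold an E-box, beside 8.09% of all genes with a window. Some genes have several windows. By window the share was 19 of 73 (26.0%), beside 7.15% of all windows. Base composition was not matched for this list.

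Of the 62 activated genes, 40 lay in the brightest of the 4 groups and 19 in the third. In the brightest group, 36 of the 40 list members lay below 0 with a median of -0.11, beside 57.8% of all genes in that group and a median of -0.04. In the third group, 15 of the 19 lay below 0 with a median of -0.21, beside 44.0% of all genes there and a median of 0.04. With cyclic loess 45 of 62 lay below 0 and the median was -0.09. The part of brightness in the list's shift was not tested.

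Genes that Myc is known to repress were mostly higher, in a list also chosen with earlier results of these data known. Of 17 measured, 15 lay above 0 and the median was 0.25, beside 50.3% and 0.003 over all genes. Ndrg1, a stress- and hypoxia-responsive gene repressed by Myc proteins, had signals of 15823 in the Gli2 shRNA cells and 5424 in the control cells (1.27 ± 0.20). Ndrg2, a related gene of astrocytes, had 484 and 194 (1.04 ± 0.21), within 2-fold with normexp (0.90). Both were past 2-fold and higher, which makes 2 of the 17, against 1.84% of all genes. Gadd45b, a stress-response gene, was at 0.998 ± 0.208 and so just short of it, past it with median scaling (1.13) and barely with cyclic loess (1.002), and at 0.68 with normexp.

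The exceptions in that list were Gas2, a growth arrest-specific actin regulator, and Gas1, which is also a Hedgehog co-receptor. Gas2 had signals of 171 on the Gli2 shRNA array and 356 on the control array, a log2 difference of -1.33 ± 0.21. It was the 1 of the 17 past 2-fold and lower, against 1.79% of all genes. Gas1 differed by -0.16 ± 0.20, and Id2, an inhibitor of helix-loop-helix factors, by 0.01 ± 0.20. The cyclin-dependent kinase inhibitor Cdkn1a, a gene chosen after its value was seen, differed by 0.63 ± 0.20. At 1.5-fold, 6 of the 17 were higher, against 6% of all genes, and 1 was lower, against 6.54%. Several of these genes are also known targets of p53, hypoxia or TGF-beta signalling, whose part was not tested.

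**Figure D4:**
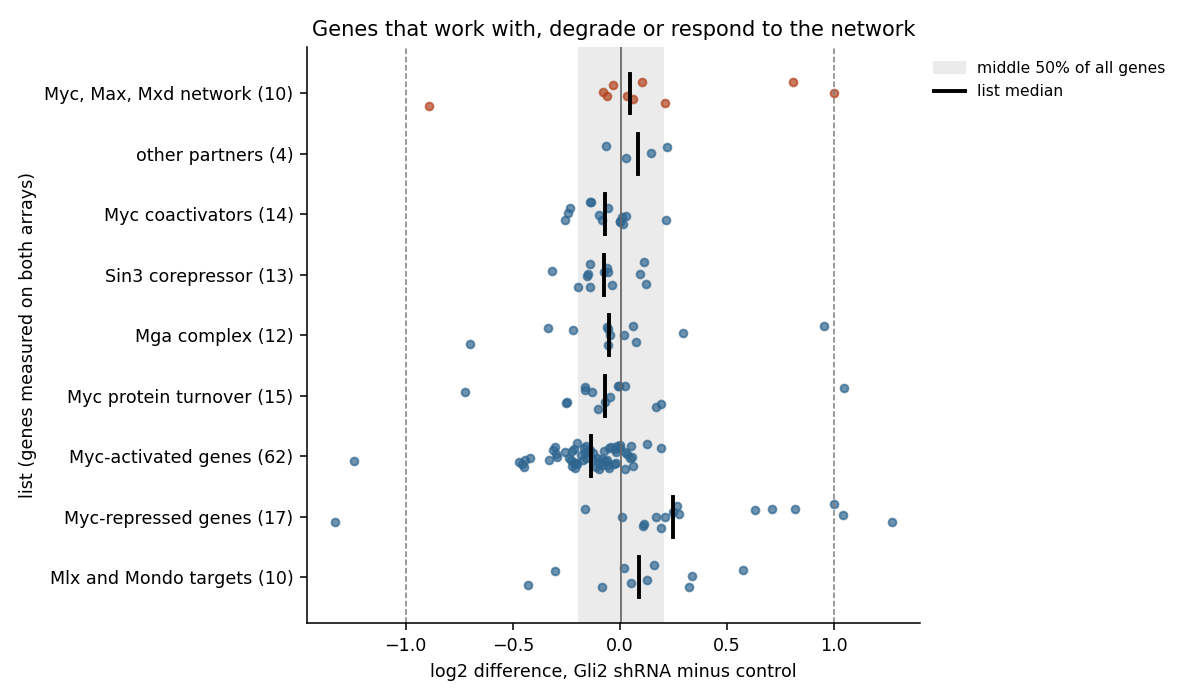
Log2 difference, Gli2 shRNA minus control, of each gene in the network, among its partners and cofactors and among its listed target genes, with the number measured on both arrays in brackets. Black bars are list medians, the grey band is the middle 50% of all genes and dashed lines mark 2-fold. The lists were chosen with earlier results of these data known. The Myc-activated genes centre at -0.13 (0.002 with median scaling, where all genes centre at 0.14) and the Myc-repressed genes at 0.25.

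Of 11 listed targets of the Mlx arm, 10 were measured, 7 lay above 0, beside 50.3% of all genes, and the median was 0.09. None passed 2-fold, against 3.63% of all genes. Txnip, a thioredoxin-binding inhibitor of glucose uptake and a well known target of MondoA with Mlx, had signals of 4907 in the Gli2 shRNA cells and 3209 in the control cells. Its log2 difference was 0.34 ± 0.20, and the other probe gave 0.75. Its relative Arrdc4 differed by 0.32 ± 0.20, but by -0.12 on its other probe. Khk, which phosphorylates fructose, was the highest at 0.57 ± 0.21.

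The lowest of the Mlx list were Elovl6 (-0.43 ± 0.20), which lengthens fatty acids, Gpd1 (-0.30 ± 0.20) and the fatty acid synthase gene Fasn (-0.09 ± 0.20). Pklr, the liver pyruvate kinase gene and a ChREBP target, was not well above background on either array.

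Cofactors of Myc had similar levels. Of 14 coactivator and elongation genes, 10 lay below 0, beside 49.7% of all genes, and the median was -0.07. None passed 1.5-fold, against 12.5% of all genes. With median scaling 5 lay below 0, beside 31.2% of all genes, and the median turned to 0.07, so the list has no settled direction. The acetyltransferase gene Kat2a differed by -0.26 ± 0.20 and the chromatin remodeller Smarcb1 by -0.23 ± 0.20. Trrap, the scaffold that Myc binds, was the highest at 0.22 ± 0.20, with other probes from -0.36 to 0.27 and hence no settled direction. The chromatin genes Ep400 (0.03 ± 0.20) and Actl6a (0.01 ± 0.20) followed.

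The corepressor that Mxd and Mnt proteins recruit had levels close to those of the control cells. Of 13 Sin3 complex genes, 10 lay below 0, beside 49.7% of all genes, and the median was -0.08. None passed 1.5-fold, against 12.5% of all genes. With median scaling 6 lay below 0, beside 31.2% of all genes, and the median turned to 0.06. Sap18 (-0.32 ± 0.20), Arid4b (-0.20 ± 0.20) and Suds3 (-0.16 ± 0.20), subunits of the complex, were lowest. The deacetylase gene Hdac1 (0.12 ± 0.20), Brms1 (0.11 ± 0.20) and Ncor1 (0.09 ± 0.20, with other probes from -0.20 to 0.05) were highest.

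In the Polycomb complex that holds Mga, 7 of 12 genes lay below 0, beside 49.7% of all genes, with a median of -0.05. None was past 2-fold, against 3.63% of all genes. The median was above 0 with normexp (0.02), median scaling (0.08), quantile normalization (0.01) and cyclic loess (0.01), so its sign is not settled. Ring1, a ubiquitin ligase of that complex, had signals of 384 in the Gli2 shRNA cells and 164 in the control cells, a log2 difference of 0.95 ± 0.21, which was past 2-fold with median scaling (1.09) and within 1.5-fold with normexp (0.51). Its paralogue Rnf2 differed by -0.33 ± 0.20. Tfdp2, a partner of E2f factors, differed by -0.70 ± 0.20 and by -0.83 on its other probe. E2f6, which brings the complex to DNA, differed by 0.30 ± 0.20, Pcgf6 by -0.22 ± 0.20 and Tfdp1 by 0.07 ± 0.20.

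Among 15 genes whose products stabilise or degrade Myc protein, 11 lay below 0, beside 49.7% of all genes, and the median was -0.07. With median scaling 5 lay below 0, beside 31.2% of all genes, and the median turned to 0.06. Fbxo32, also called atrogin-1, a ubiquitin ligase subunit reported to target Myc, was past 2-fold, with signals of 287 on the Gli2 shRNA array and 115 on the control array (1.05 ± 0.21). It was the 1 of the 15 past 2-fold, against 3.63% of all genes, and was within 2-fold with normexp (0.82). Fbxo28, another ligase subunit, differed by -0.72 ± 0.20, and by -0.84 on its other probe. The ligase gene Huwe1 differed by -0.25 ± 0.20 and the deubiquitinases Usp36 by -0.25 ± 0.21 and Usp28 by 0.17 ± 0.20. Other Usp36 probes ran from -0.14 to 0.14, so Usp36 has no settled direction. The kinase gene Pim1 differed by 0.19 ± 0.21.

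In the Gli2 shRNA array 57.1% of probes passed the software's background test, and in the control array 59.5% did. All 10 neural stem and glioma markers were measured on both arrays, with Sox2 at signals of 6516 in the Gli2 shRNA cells and 5594 in the control cells. Of 6 endothelial markers 2 were measured on both arrays, and the unscaled signals of the whole list summed to 129.9 in the Gli2 shRNA cells and 129.6 in the control cells. After scaling, the ratio of the sums, Gli2 shRNA over control, was 0.83. Of 6 fibroblast and pericyte markers 1 was measured on both, with sums of 56.2 in the Gli2 shRNA cells and 61.8 in the control cells and a scaled ratio of 0.75.

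Of 8 microglia and macrophage markers 4 were measured on both arrays. Their list summed to 6322 in the Gli2 shRNA cells and 5534 in the control cells, and the scaled ratio was 0.94. Itgam gave 5413 and 4694 of these sums, a log2 difference of -0.07, but differed by 0.37 on its other probe. Ptprc and Cx3cr1 were not well above background on either array, and P2ry12 and Aif1 were above it on the control array alone. Neuronal markers (5 of 6 measured) summed to 21894 in the Gli2 shRNA cells and 23102 in the control cells, with a scaled ratio of 0.78. Map2 gave most of that sum (16146 in the Gli2 shRNA cells and 18672 in the control cells, a log2 difference of -0.49), while Tubb3 differed by 0.74 and 3 of the 5 lay above 0. Oligodendrocyte markers (5 of 6) summed to 912 and 742, with a scaled ratio of 1.02. The part of such cells in the differences above was not tested, and fewer cells of a type cannot be told apart from less RNA per cell.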

How the data were processed

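Total RNA of 1 Gli2 shRNA and 1 control culture was labelled with Cy3 for 1-colour Agilent arrays, as the labels' protocols state. Per the file headers, both arrays were read on 1 slide and in 1 scan by Agilent Feature Extraction 12.1.0.3. The deposited intensity of each spot was background-subtracted by that software, per the file headers. The authors' deposited value table is on a log2 scale, and each column equals the log2 processed signal minus 1 constant (8.64 for Gli2 shRNA, 8.36 for control). Its column medians are -3.69 and -3.55, and its direction is that of expression.

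Non-control spots flagged as outliers were left out (120 on the Gli2 shRNA array and 126 on the control array), and none was saturated. Spots of a probe were averaged on the log2 scale, and 56595 probes remained. The 75th percentile was a signal of 399 on the Gli2 shRNA array and 329 on the control array. Probes were named through unversioned RefSeq accessions (assembly GRCm38.p6), and a gene was read on its brightest probe, with all probes of network genes given. A measured probe is one well above background, and 14563 genes were measured on both arrays. The network genes and lists were chosen with earlier results of these data known. Genes were named by a fixed rule: all network genes and partners, Gli2, and in each list those past 2-fold and the 3 farthest from 0 in each direction. Cdkn1a, named after its value was seen, and the cell type markers lie outside the rule. The values of 1 gene that this rule names are not reported here. The counting was tested on simulated data with equal noise at every brightness and the control array's background flags on both arrays. That test does not cover the wider spread of dim genes such as Mxd1, Mxd4 and Mycl. Normexp and cyclic loess used limma 3.58.1 in R 4.3.3. The scanner files give no mean spot signal column, so normexp took the median signal. With 1 array per group, the number of arrays limits the precision, and there is no p-value.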

Additional observations from a re-analysis of the deposited data

How the results depend on the processing

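The alternatives were normexp background correction, median scaling, quantile normalization, the authors' deposited table, cyclic loess (added after seeing the data), the mean of probes, no filter on dim probes, a signal of at least 100 on both arrays, and 1.5-fold. Without replicates, a log2 value was held to have moved when it shifted by more than the software error. A count was held to have moved when it changed by more than 1.5-fold. The count of network genes past 2-fold was 0, and it was 1 with median scaling and 1 with cyclic loess (Mxd1 each time) and 3 at 1.5-fold. Of all named genes 528 were past 2-fold, 268 higher and 260 lower, against 167 with normexp (67 and 100), 2844 with no filter (769 and 2075), 205 at a signal of at least 100 (83 and 122) and 1827 at 1.5-fold. The share of these genes that were higher was 50.8%, against 68.6% when scaled by the median (384 and 176), 40.1% with normexp, 27.0% with no filter and 40.5% at the stricter signal. Of the 9 lists, 5 had a median below 0, and with median scaling each of the 5 turned: to 0.002 for Myc-activated genes, 0.07 for coactivators, 0.06 for the Sin3 complex, 0.08 for the Mga complex and 0.06 for Myc turnover. The Mga complex also turned with normexp, quantile normalization and cyclic loess. The other 4 medians stayed above 0 in the alternatives run. With median scaling the median of all genes itself rose to 0.14. No list median shifted by more than the median software error of 0.20. That is an error of single genes and not of list medians. Median scaling shifts every gene by the same 0.14, so it could not have moved a list median that far. Differences of dim probes shrank with normexp to 0.54 (Mxd1), 0.52 (Mxd4) and -0.57 (Mycl), all within 1.5-fold. Signal over background limits what can be said of the second probes of Mxd1 and Mycl. No paired analysis was possible because each group has 1 array.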
